A study of Mus musculus with 24 samples.

Results

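The 10 genes described here belong to the YAP/TAZ mechanosensing pathway and were chosen by name from the 14785 genes of a bulk RNA-seq table of whole mouse kidney. They are the coactivator genes Yap1 and Wwtr1 (which encodes TAZ), the DNA-binding partner Tead1, the regulators Lats2, Amotl2 and Ajuba, the stretch-gated channel gene Piezo1, and the target genes Ctgf, Cyr61 and Ankrd1. All 10 have a row in the table. Positions are given where a gene is first described, as the deposited table lists them (mm10). The study followed unilateral ureteral obstruction (UUO), in which ligating the ureter raises pressure in the tubules, and its surgical reversal. All animals were male mice of strain C57/BL6, given as 8 week old in the labels, and there were 6 groups of 4. Sham-operated mice were the controls. The UUO2 and UUO7 mice were killed 2 and 7 days after the ligation. In the R1W, R2W and R4W mice the ureter was reimplanted after 7 days, and the kidney was taken 1, 2 or 4 weeks later. None of the groups carried a transgene or drug treatment in the labels, each group had 10 animals of which 4 were taken for sequencing, and how those 4 were picked is not given in the sources used here.

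In the Hippo pathway, the kinases encoded by Stk3 and Stk4 activate the LATS kinases, which phosphorylate YAP and TAZ and hold them in the cytoplasm. Stretch, a stiff matrix and actin tension release this hold, and nuclear YAP and TAZ then bind TEAD proteins and switch on genes such as Ctgf, Cyr61 and Ankrd1. In the kidney, YAP and TAZ are known for roles in nephron formation, in podocytes and in fibrosis after injury. Their activity is set largely by phosphorylation and location, which RNA levels do not measure.

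TEAD proteins recognise the letters GGAATG, or CATTCC on the other strand, so the promoters were searched for both. RefSeq promoter windows (build GRCm38.p6, the 250 bases before the transcription start) were matched for 8 of the 10 genes, and 6 of those held at least 1 match, namely Cyr61, Ankrd1, Ajuba, Amotl2, Yap1 and Wwtr1. Of 27025 genes with such a window, 12.6% held a match and 1.02% held 2 or more. The AP-1 letters TGANTCA, present in 6.87% of genes, were in 0 of the 8 windows. The windows of a direct target (Cyr61), of the 2 genes with 2 matches each (Ankrd1, Ajuba) and of a regulator that is itself a known target (Amotl2) are shown 5′ to 3′ on the strand of the gene, with the TEAD letters in capitals. They lie at chr3:145649986-145650235 (minus strand) for Cyr61, chr19:36119845-36120094 (minus) for Ankrd1, chr14:54577662-54577911 (minus) for Ajuba and chr9:102717554-102717803 (plus) for Amotl2.
Cyr61: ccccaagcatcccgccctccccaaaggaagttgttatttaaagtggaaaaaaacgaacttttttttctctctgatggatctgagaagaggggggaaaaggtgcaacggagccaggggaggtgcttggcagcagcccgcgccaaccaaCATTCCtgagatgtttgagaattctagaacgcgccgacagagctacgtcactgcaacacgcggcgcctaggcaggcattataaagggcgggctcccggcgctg
Ankrd1: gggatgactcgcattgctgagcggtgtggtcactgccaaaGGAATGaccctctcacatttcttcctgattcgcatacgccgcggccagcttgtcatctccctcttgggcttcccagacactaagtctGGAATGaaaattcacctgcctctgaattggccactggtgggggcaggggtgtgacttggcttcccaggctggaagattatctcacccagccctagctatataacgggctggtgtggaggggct
Ajuba: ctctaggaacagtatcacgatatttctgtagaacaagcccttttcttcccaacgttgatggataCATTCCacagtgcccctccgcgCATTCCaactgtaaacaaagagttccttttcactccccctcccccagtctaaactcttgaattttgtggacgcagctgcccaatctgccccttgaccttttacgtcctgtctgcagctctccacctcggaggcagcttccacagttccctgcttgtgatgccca
Amotl2: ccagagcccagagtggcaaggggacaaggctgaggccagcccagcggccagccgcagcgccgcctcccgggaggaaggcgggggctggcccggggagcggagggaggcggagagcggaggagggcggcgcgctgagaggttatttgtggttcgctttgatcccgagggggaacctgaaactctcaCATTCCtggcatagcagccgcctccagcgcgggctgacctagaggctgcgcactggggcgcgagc
The Cyr61 match begins 103 bases before the start and the Amotl2 match 65 bases before it. The Ankrd1 matches begin 210 and 123 bases before the start, and those of Ajuba 186 and 164. A match of letters is a description of the window and was not tested for binding.

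The unit of the table is not stated and was inferred from the values as FPKM, that is fragments per length of transcript and per depth. If so, levels can be set side by side between genes, and they are called FPKM below. On the deposited scale the median gene stood 0.42 log2 higher in UUO7 than in sham, and 0.30 higher in R4W than in sham. Levels and differences below are therefore given as FPKM rescaled by a factor per library, which brings that median to 0.0078 and -0.013, and the deposited scale is named where it changes the call of 1 of the 10 genes. A gene was called higher or lower at an adjusted p under 0.05 from limma on log2(rescaled FPKM + 1), adjusted by Benjamini-Hochberg over all 14785 genes, and differences are on that log2 scale. Implied depth was 24600000 to 36100000 fragments in 20 libraries and is unknown for the 4 UUO2 libraries, whose values lack the whole-fragment steps of the others, so this feature cannot be told apart from the group. The series' text speaks of 20 libraries sequenced together, where 24 are deposited. Whether UUO2 was a separate run is not given in the sources used here, and for any value particular to UUO2 a run and the 2 days of ligation cannot be told apart. Nothing in the labels says more of the replicates than that they were separate mice. In whole tissue, fewer cells of a type and less RNA per cell cannot be told apart.

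Several libraries stood apart across these genes. Sham replicate 2 was the highest of its group for 8 of the 10 genes. It also had a summed level of 5 urothelium markers of 39.4, against 1.83 to 2.86 in the other sham libraries, and of 4 adipose markers of 323, against 50.5 to 59.6. UUO2 replicate 2 was the lowest of its group for 9 of the 10 genes. Its summed level of 5 injured tubule markers (such as Havcr1, which encodes KIM-1) was 856, against 1245 to 1476 in the other UUO2 libraries, and its thick limb and distal marker sum was 2529, against 1086 to 1361. R2W replicate 2 was likewise the lowest for 9 of the 10. In R4W the adipose sum was 1479 in replicate 1 and 361 in replicate 3, against 57.4 and 67.5 in replicates 2 and 4, and the urothelium sum was 39.4 to 133.5. R4W replicate 1 was the highest of its group for 5 of the 10 genes. The part of these marker levels in the results was not tested. Without sham 2, 5 of the 10 genes were called in UUO2 and 6 in UUO7 against sham, and without UUO2 2, 5 were called in UUO2 against sham, the same counts as with all libraries. The title of R4W replicate 2 says 4 weeks and its treatment label 2 weeks, and it is grouped here by title. Its mean correlation was 0.978 with the R2W libraries and 0.976 with the other R4W libraries.

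**Figure D1:**
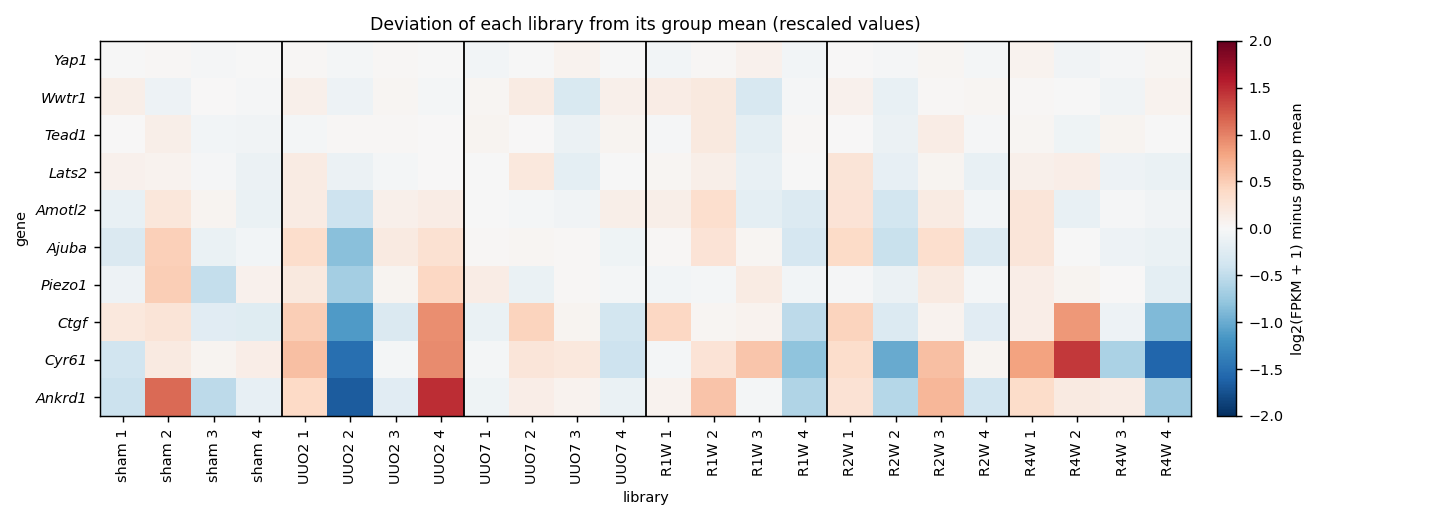
Deviation of each of the 24 libraries (x axis, replicates within group) from its group mean for the 10 genes (y axis), in log2(rescaled FPKM + 1), red above and blue below the mean. Sham replicate 2 is the highest of its group for 8 genes and UUO2 replicate 2 the lowest for 9. Over all 24 libraries the target genes Ctgf, Cyr61 and Ankrd1 have the widest range, but not in every group. In sham, Piezo1 (-0.48 to 0.49) ranges wider than Ctgf (-0.24 to 0.26).

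In sham kidney, the mean level ran from 30.7 for Amotl2 (chr9:102716672-102733418, plus strand), which encodes an angiomotin that holds YAP at cell junctions, down to 2.57 for Ankrd1. Piezo1 (25.7), Cyr61 (24.2), Yap1 (22.1) and Ctgf (19.6) lay close together below Amotl2. At 7 days of ligation Ctgf (73.3), Cyr61 (65.8) and Piezo1 (60.0) had the 3 highest means, while Lats2 (7.38) and Tead1 (8.06) had the lowest.

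Of the target genes, Cyr61 and Ankrd1 were called higher than in sham after 2 days and Ctgf was not. After 7 days all 3 were higher. At 4 weeks of recovery Ctgf and Ankrd1 were still higher than in sham.

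Ctgf (chr10:24595442-24598683, plus strand) encodes the secreted CCN2 protein, a matrix-associated factor linked to fibrosis. Its level was 22.5, 23.5, 16.4 and 16.2 in the sham libraries, 22.9, 6.67, 12.9 and 31.2 in UUO2, and 65.3, 98.0, 74.6 and 55.4 in UUO7. The UUO2 libraries spanned the sham range on both sides, and every UUO7 library lay above every sham and UUO2 library. The difference was -0.27 (SE 0.36, adjusted p = 0.560) for UUO2 against sham, with a 95% interval of -1.02 to 0.49, and it was 1.84 (adjusted p = 0.00012) for UUO7 against sham. Between the days of ligation, Ctgf rose by 2.11 (adjusted p = 4.1e-05). Of the UUO2 libraries, replicate 2 moves the first of these values most: leaving it out turns the sign, to 0.11.

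Cyr61 (chr3:145646976-145649981, minus strand) encodes the related CCN1 protein. Its level was 18.0, 27.3, 25.0 and 26.4 in sham, 100.1, 22.4, 63.5 and 126.9 in UUO2, and 62.9, 77.1, 74.96 and 48.4 in UUO7. Of the UUO2 libraries, 3 lay above all sham libraries and replicate 2 lay among them, while all UUO7 libraries lay above sham. Cyr61 rose by 1.42 (SE 0.54, adjusted p = 0.0341) in UUO2 and by 1.40 (adjusted p = 0.0248) in UUO7 against sham. Both calls lay near the threshold. Leaving out 1 library kept the difference at 1.10 to 1.92 for UUO2 and 1.27 to 1.54 for UUO7. The authors' deposited table gives 1.71 (adjusted p = 0.00296) for UUO2 and 1.43 (adjusted p = 1.27e-16) for UUO7. The UUO2 call was lost without any 1 of sham 1, 3 or 4 or UUO2 1, 3 or 4 (adjusted p 0.0516 to 0.124), and the UUO7 call without sham 1, UUO7 2 or UUO7 3 (0.0535 to 0.0628). Between UUO7 and UUO2 the difference was -0.015 (95% interval -1.14 to 1.11).

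The ratio of the CCN genes within a library does not depend on its scaling. It was chosen after their values had been seen, so it is given as a description, and no p of it is used. Cyr61 over Ctgf was 0.803 to 1.63 in the 4 sham libraries, 3.35 to 4.93 in UUO2 and 0.786 to 1.00 in UUO7. All 4 UUO2 libraries, the low replicate 2 included, thus lay above every sham and UUO7 library, and also above R1W (0.378 to 0.730), R2W (0.343 to 0.854) and R4W (0.511 to 1.37). The mean log2 ratio was 0.30 in sham, 2.05 in UUO2 and -0.15 in UUO7.

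**Figure D2:**
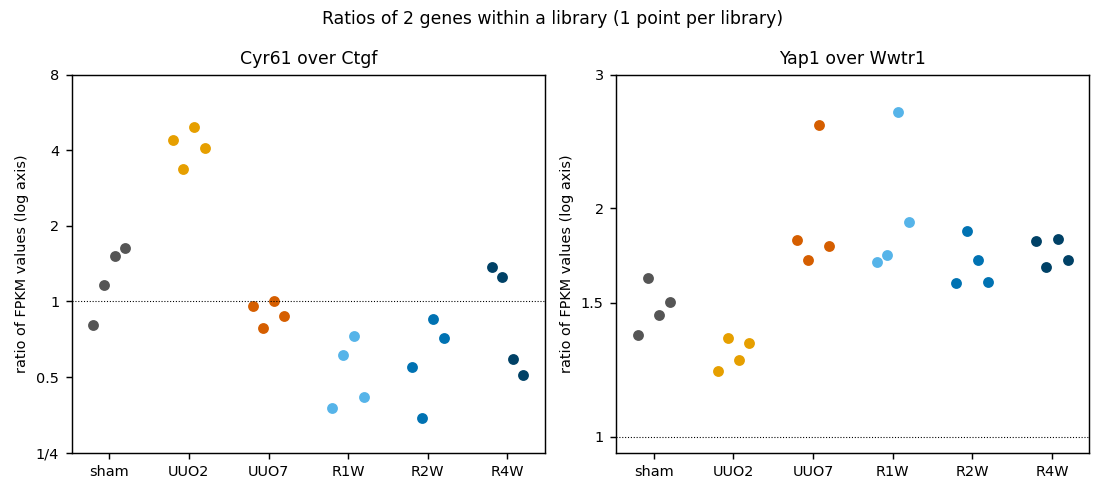
Ratio of Cyr61 to Ctgf (left) and of Yap1 to Wwtr1 (right) in each library (1 point per library, log axis), by group. The UUO2 points lie between 3.35 and 4.93 on the left, above the points of every other group, and between 1.22 and 1.35 on the right, below the points of every other group.

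Ankrd1 (chr19:36111965-36119844, minus strand) encodes an ankyrin repeat protein that links the sarcomere and the nucleus in muscle and is a widely used YAP target elsewhere. Its level was 1.34, 5.95, 1.19 and 1.82 in sham, 14.6, 2.75, 9.10 and 32.1 in UUO2, and 18.8, 22.1, 21.0 and 18.2 in UUO7. UUO2 replicate 2 lay below sham replicate 2, and the UUO7 libraries lay close together above all sham libraries. Ankrd1 rose by 1.90 (SE 0.48, adjusted p = 0.00236) in UUO2 and by 2.73 (adjusted p = 2.99e-05) in UUO7. The step between the days of ligation was 0.83 (adjusted p = 0.138). It rested on the spread within UUO2, being 0.28 without replicate 2 and 1.32 without replicate 4 (adjusted p = 0.0133), and it was called on the deposited scale (1.15, adjusted p = 0.0429). At these low sham levels the size depends on the pseudocount: with 0.1 and 10 in place of 1 the difference was 2.29 and 0.85 in UUO2 and 3.22 and 1.27 in UUO7.

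Of the genes upstream, Tead1 was highest at 2 days. Whether that group was a separate run is not given, and a run could not be told apart from its treatment. Tead1 (chr7:112679318-112906807, plus strand) encodes a DNA-binding partner of YAP and TAZ. It stood at 7.56, 8.18, 7.19 and 7.12 in sham, at 12.6, 13.2, 13.2 and 13.0 in UUO2, and at 8.35, 8.12, 7.37 and 8.41 in UUO7. All UUO2 libraries lay above all sham and UUO7 libraries, and replicate 2 did not stand apart for this gene. Tead1 rose by 0.72 (SE 0.072, adjusted p = 1.08e-07) in UUO2 against sham and fell by 0.63 (adjusted p = 2.69e-07) from UUO2 to UUO7, or by 0.31 on the deposited scale. In the authors' deposited table these were 0.489 and -0.436. Over the settings other than leaving out a library, the rise in UUO2 ran from 0.39 to 0.83 and stayed called. UUO7 against sham gave 0.091 (adjusted p = 0.260), which was called on the deposited scale (0.52, adjusted p = 4.49e-05).

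Yap1 (chr9:7931999-8004596, minus strand) and Wwtr1 (chr3:57455649-57575910, minus strand) encode the coactivators. The Yap1 level was 22.1, 22.5, 21.8 and 22.1 in sham, 22.8, 21.7, 22.7 and 22.4 in UUO2, and 23.9, 24.7, 26.0 and 24.5 in UUO7. The UUO7 libraries lay above all others of these groups by a small step: Yap1 rose by 0.16 (SE 0.045, adjusted p = 0.0039) in UUO7 against sham (0.62 on the deposited scale). From UUO2 to UUO7 Yap1 rose by 0.14 (adjusted p = 0.0109), a call lost when only these groups were fitted (adjusted p = 0.0557). Wwtr1 stood at 16.2, 13.9, 15.1 and 14.7 in sham, 18.7, 16.1, 18.0 and 16.8 in UUO2, and 13.2, 14.4, 10.1 and 13.8 in UUO7. It fell by 0.42 (adjusted p = 0.00147) from UUO2 to UUO7, with no overlap, but not on the deposited scale (-0.088, adjusted p = 0.516). Against sham, Wwtr1 differed by 0.21 (adjusted p = 0.102) in UUO2, which was called on the deposited scale (0.33, adjusted p = 0.0223). In UUO7 it differed by -0.21 (adjusted p = 0.0696), with the opposite sign, 0.24, on the deposited scale (adjusted p = 0.0618) and the value was -0.27 and called without UUO7 replicate 2 (adjusted p = 0.0347) but -0.11 without UUO7 replicate 3.

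The ratio of Yap1 to Wwtr1 within a library, which has no scale either, was likewise chosen after seeing the values and is a description only. It was 1.36 to 1.62 in sham, 1.22 to 1.35 in UUO2, 1.71 to 2.58 in UUO7 and 1.67 to 1.82 in R4W. The UUO2 libraries lay below the sham libraries and the UUO7 libraries above them, with mean log2 ratios of 0.37, 0.57 and 0.96 in UUO2, sham and UUO7. It says how the genes stood to each other and not which of them changed.

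Among the regulators, Ajuba moved and Lats2 and Amotl2 did not pass the test during obstruction. Ajuba (chr14:54567472-54577558, minus strand) encodes a LIM protein that binds LATS kinases and lowers their activity. Its level was 11.3, 20.0, 12.7 and 13.4 in sham, 40.2, 17.1, 35.3 and 38.7 in UUO2, and 31.9, 32.2, 31.9 and 29.6 in UUO7. UUO2 replicate 2 fell within the sham range, and the other 3 UUO2 libraries and all UUO7 libraries lay above it. Ajuba rose by 1.10 (SE 0.23, adjusted p = 0.000457) in UUO2 and by 1.11 (adjusted p = 0.000184) in UUO7. Lats2 (chr14:57689662-57758388, minus strand) encodes a kinase that inhibits YAP and TAZ, and its libraries ranged over 6.63 to 7.82 in sham and 6.30 to 8.65 in UUO7. For UUO7 against sham, Lats2 gave 0.0075 (95% interval -0.20 to 0.22) and Amotl2 gave 0.040 (95% interval -0.28 to 0.36). Both were called higher on the deposited scale (0.43 and 0.51), where the median gene itself stood 0.42 higher. From UUO2 to UUO7 Lats2 gave -0.019 (adjusted p = 0.880), and 0.29 on the deposited scale, called there (adjusted p = 0.0391).

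Piezo1 (chr8:122481698-122551329, minus strand) encodes a cation channel opened by membrane tension, and here 2 sources gave different values. Its level was 23.2, 35.4, 17.6 and 26.5 in sham, 56.1, 30.0, 50.6 and 65.4 in UUO2, and 66.7, 54.6, 60.7 and 58.2 in UUO7. UUO2 replicate 2 overlapped sham, and every UUO7 library lay above it. The difference was 0.94 (SE 0.18, adjusted p = 0.000278) for UUO2 and 1.23 (adjusted p = 4.34e-06) for UUO7 against sham. The authors' deposited table gives 0.410 (adjusted p = 0.0232) for UUO2 and 0.104 (adjusted p = 0.563) for UUO7. From UUO2 to UUO7 Piezo1 gave 0.30 (adjusted p = 0.171). That step was called on the deposited scale (0.64, adjusted p = 0.00813) and without UUO2 replicate 4 (adjusted p = 0.0487), and it is -0.293 in the authors' deposited table. Over 11293 genes with a group mean of at least 5, the gap between the authors' deposited table and the values here had a median size of 0.072 for UUO7 against sham. The Piezo1 gap of -1.13 was larger than that of 98.3% of these genes, and the gap of no other of the 10 genes was beyond 0.22. The cause was not tested, and the change of Piezo1 with obstruction is therefore given as a change in FPKM only.

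In counts, 5 of the 10 genes were called higher and 0 lower in UUO2 against sham, where 25.3% of all genes were called higher and 25.5% lower. The 5 were Cyr61, Ankrd1, Tead1, Ajuba and Piezo1, and of these Tead1 alone had all UUO2 libraries above all sham libraries, as had 20.6% of all genes. In UUO7 against sham 6 were higher and 0 lower, against 36.5% of all genes in each direction. These were Ctgf, Cyr61, Ankrd1, Yap1, Ajuba and Piezo1, and all 6 had every UUO7 library above every sham library, as had 34.3% of all genes. On the deposited scale 9 were called higher in UUO7, but there 60.1% of all genes were higher and 17.8% lower. In UUO2 it was 6, with 32.3% of all genes higher and 17% lower. From UUO2 to UUO7, 2 rose (Ctgf, Yap1) and 2 fell (Wwtr1, Tead1), against 30% and 31.9% of all genes. The Yap1 call was lost with only these groups fitted (adjusted p = 0.0557). On the deposited scale 5 rose (Ctgf, Ankrd1, Yap1, Lats2, Piezo1) and 1 fell (Tead1), against 52% and 14.7% of all genes. The median difference of the 10 genes was 0.63 in UUO7 and 0.46 in UUO2 against sham, where that of all genes was 0.0078 and -0.015.

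**Figure D3:**
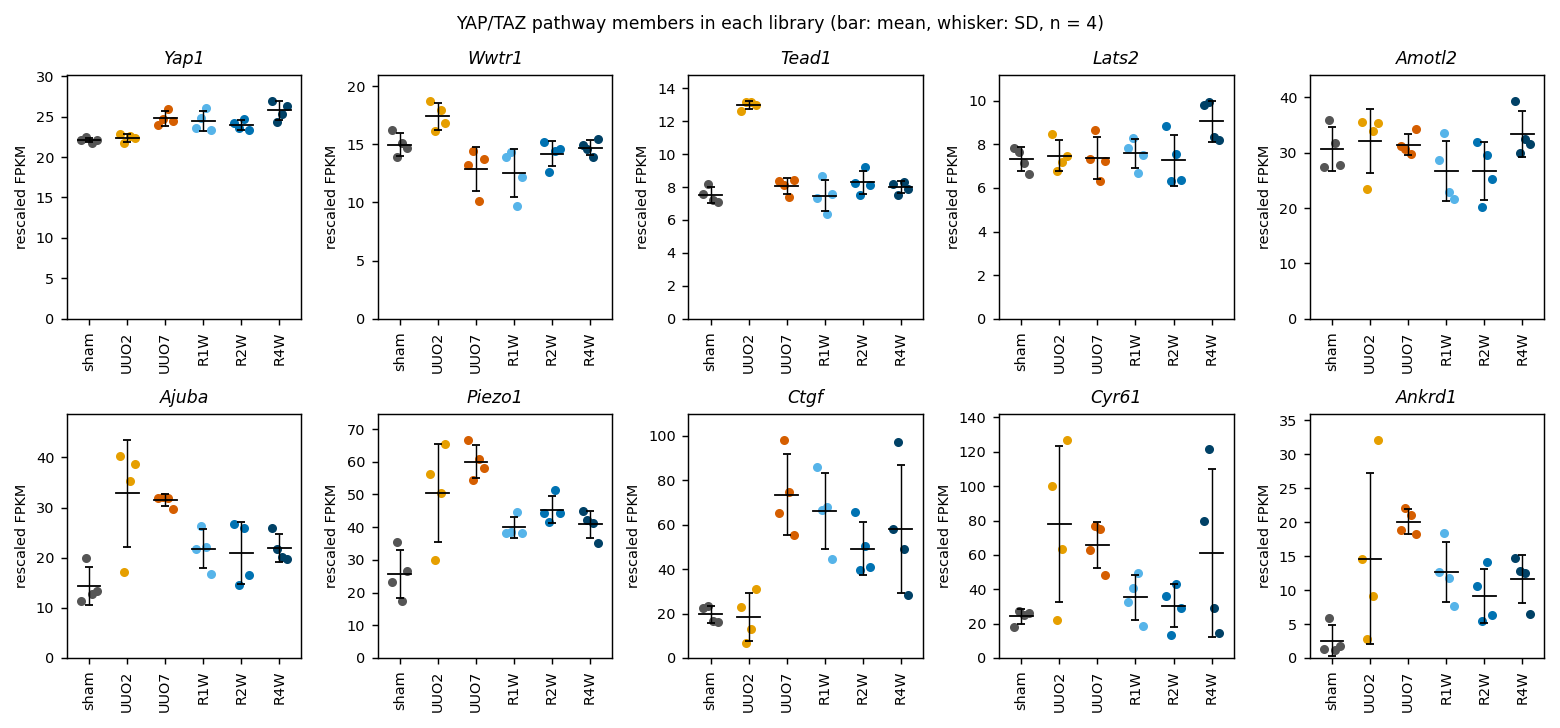
Rescaled FPKM (y axis, from 0) of each of the 10 genes in the 4 libraries of each group (x axis), with the mean as a bar and the SD as a whisker. Tead1 is highest in UUO2 (mean 13.0), Ctgf has a mean of 18.4 there, 19.6 in sham and 73.3 in UUO7, and Lats2 is highest in R4W (9.06).

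**Figure D4:**
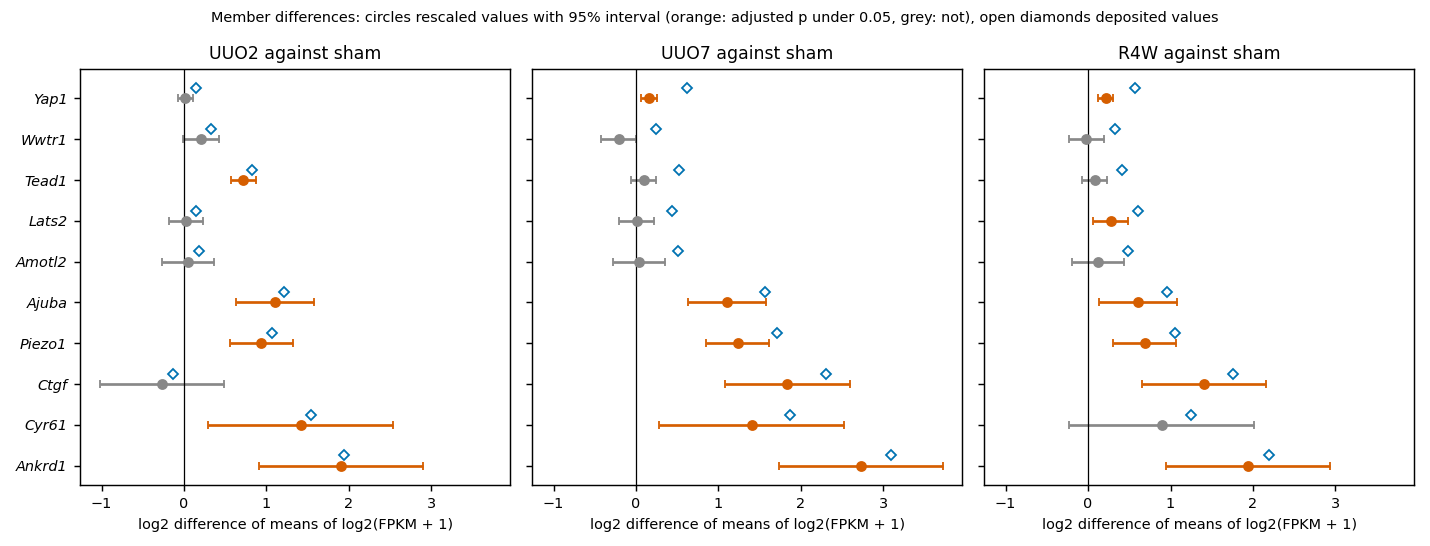
Log2 differences against sham for UUO2, UUO7 and R4W, with circles for rescaled values, lines for their 95% intervals, orange for an adjusted p under 0.05 and open diamonds for the deposited scale. Ankrd1 has the largest difference in each panel (1.90, 2.73 and 1.94), and the diamonds for UUO7 lie to the right of the circles.

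After reversal, R1W and R4W were tested against UUO7, and few of their differences passed the test. R2W was not among the comparisons fitted. In R1W against UUO7, 0 of the 10 genes were called higher and 1 lower, Piezo1, where 7.26% of all genes were higher and 7.14% lower. The R1W levels of Piezo1 were 38.2, 38.7, 44.6 and 38.2, all below UUO7, and the difference was -0.58 (adjusted p = 0.0411). The call was lost without any 1 of UUO7 1 to 4 or R1W 1, 2 or 4 (adjusted p 0.0506 to 0.108) and with a replicate block (0.0599). The authors' deposited table gives -0.223 (adjusted p = 0.502). Ajuba stood at 21.8, 26.3, 22.2 and 16.8 in R1W, also below every UUO7 library, with a difference of -0.53 (adjusted p = 0.123). Cyr61 differed by -0.94 (adjusted p = 0.248) and Ankrd1 by -0.68 (adjusted p = 0.347). For these 3 genes the authors' deposited table gives close values, -0.492, -0.914 and -0.685, with adjusted p of 0.00596, 0.00316 and 0.0115. In R2W the mean was 49.1 for Ctgf, 30.5 for Cyr61 and 9.13 for Ankrd1. For R2W against UUO7 the authors' deposited table gives -0.612 for Ctgf (adjusted p = 0.0108) and -1.159 for Cyr61 (0.000396). It gives -1.183 for Ankrd1 (4.54e-05) and -0.544 for Ajuba (0.00906), and adjusted p above 0.05 for the rest of the 10 genes.

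By 4 weeks of recovery, the group with the uneven adipose and urothelium sums given above, 6 of the 10 genes were called higher than in sham and 0 lower, against 28.9% and 31.1% of all genes (9 of 10 on the deposited scale, against 54.8% and 11.6%). Without R4W replicate 1 it was 4, with Lats2 and Ajuba lost, and without R4W replicate 3 it was 6. Ctgf stood at 58.0, 96.9, 49.1 and 28.2 in R4W, all above sham, and was higher by 1.40 (adjusted p = 0.00225). Ankrd1 stood at 14.7, 12.8, 12.5 and 6.44, again all above sham, and was higher by 1.94 (adjusted p = 0.00149). Over the settings other than leaving out a library, the Ankrd1 difference ran from 0.78 to 2.38 and stayed called. Cyr61 stood at 79.5, 121.6, 28.9 and 14.4, so that replicate 4 lay below all sham libraries and replicates 1 to 3 above them. Its difference was 0.89 (adjusted p = 0.161), and it was 1.42 and called without replicate 4 (adjusted p = 0.0217) but 0.42 without replicate 2, the library with the conflicting label. Wwtr1 (0.33), Tead1 (0.41) and Amotl2 (0.48) were called higher in R4W than in sham on the deposited scale alone, where rescaled they gave -0.022, 0.078 and 0.12.

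The other genes called in R4W against sham had smaller differences. Yap1 levels were 27.0, 24.3, 25.4 and 26.4, all above sham, and Yap1 was higher by 0.21 (adjusted p = 0.000448). Ajuba was higher by 0.60 (adjusted p = 0.0278), a call lost without sham 1, 3 or 4 or R4W 1 (adjusted p 0.0559 to 0.0880). Piezo1 was higher by 0.69 (adjusted p = 0.00303), and by 0.423 (adjusted p = 0.00125) in the authors' deposited table. Lats2 stood at 9.80, 9.94, 8.33 and 8.18 in R4W, above every sham library, and was higher by 0.27 (adjusted p = 0.0236). That call was lost without sham 3 or 4 or R4W 1 or 2 (adjusted p 0.0512 to 0.0765) and with R4W 2 placed in R2W (0.115). The authors' deposited table gives 0.360 (adjusted p = 0.00051) for Lats2 and 0.584 (adjusted p = 0.00364) for Ajuba. Deposited values put Yap1, Lats2, Ajuba and Piezo1 higher by 0.57, 0.60, 0.95 and 1.05. Set directly against UUO7, R4W had Lats2 higher by 0.27 (adjusted p = 0.0342) and Piezo1 lower by 0.55 (adjusted p = 0.0191).

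In that comparison, R4W against UUO7, 1 gene was thus called higher and 1 lower, where 25.1% of all genes were higher and 23.2% lower. The Lats2 call was lost without UUO7 1, 3 or 4 or R4W 1 or 2 (adjusted p 0.0614 to 0.130), with R4W 2 placed in R2W (0.142) and with only these groups fitted (0.0535), and it was not made on the deposited scale (0.17, adjusted p = 0.255). There 0 of the 10 genes were higher and 2, Ajuba and Piezo1, lower, against 17.6% and 30.8% of all genes. The Piezo1 call was lost without UUO7 1 or R4W 4 (adjusted p 0.0535 to 0.0606), and the authors' deposited table gives the opposite sign, 0.275 (adjusted p = 0.0524). Ajuba differed by -0.51 (adjusted p = 0.0702) and Ankrd1 by -0.79 (adjusted p = 0.178), each with all R4W libraries below all UUO7 libraries. For these genes the authors' deposited table gives -0.431 (adjusted p = 0.000239) and -0.829 (adjusted p = 0.000213). Between R1W and R4W 0 of the 10 genes were called by limma, against 17.3% of all genes in either direction. Of the 10, 3 had an unadjusted p under 0.05. Piezo1 gave 0.029 here for R4W against R1W, and 0.515 (adjusted p = 0.0381) in the authors' deposited table.

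The rest of the pathway was read from 3 lists. Of 25 Hippo core and regulator genes, 23 had a row, and in UUO7 against sham 15 were higher and 4 lower (36.5% of all genes each way), with a median difference of 0.53. The largest rise was in Tead2, another TEAD gene, with a mean of 14.3 in UUO7 and 1.83 in sham (difference 2.45), followed among the genes named by rule by the kinase gene Map4k4 (1.14) and the LIM gene Wtip (0.84). At 2 days Tead2 did not pass the test (0.17, adjusted p = 0.496). The falls included the tumour suppressor Nf2, which promotes LATS activation, with a mean of 18.0 against 29.1 (-0.66), Wwc2 (-0.65) and the LATS cofactor Mob1b (-0.62). Between UUO7 and R4W Tead2 fell by 1.01 (adjusted p = 0.00043) to a mean of 6.60, still higher than in sham (1.44), and Nf2 rose by 0.44. The 6 directions in UUO7 against sham held on the deposited scale, where 19 were higher and 3 lower, against 60.1% and 17.8% of all genes.

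Of 17 further genes known as YAP/TAZ targets, 16 had a row, and 12 were higher and 2 lower in UUO7 against sham, where 36.5% of all genes were called each way, with a median of 0.97. On the deposited scale it was 13 and 1, against 60.1% and 17.8% of all genes. Myof, a membrane repair protein gene, had a mean of 71.8 in UUO7 and 9.58 in sham (2.90), the matrix gene Ccdc80 15.5 and 1.41 (2.80), and the receptor kinase gene Axl 29.1 and 4.57 (2.44). The 2 lower genes were Crim1 (-0.34, but 0.11 and not called on the deposited scale) and Dock5 (-0.72), the latter named after its value was seen. At 2 days Myof was already higher (2.46, adjusted p = 1.39e-06), while Axl (0.24, adjusted p = 0.249) and Ccdc80 (0.37, adjusted p = 0.144) did not pass. At 4 weeks of recovery Axl (2.55), Ccdc80 (2.57) and Myof (2.23) were still higher than in sham. Other targets, named after their values were seen, had fallen from UUO7: Igfbp3 by 1.06, Fjx1 by 1.05, Gadd45a by 0.97 and F3 by 0.96. These were the 4 of the 16 genes called lower there, and 3 were called higher. All 4 had been higher than sham in UUO7. In R4W Igfbp3, Fjx1 and Gadd45a were not called against sham (-0.079, -0.090 and 0.21), while F3 was still called higher (0.65).

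Of 21 genes of mechanosensing and actin linkage, 12 were higher and 3 lower in UUO7 against sham (36.5% of all genes each way), with a median of 0.54. The actin crosslinker gene Flna had a mean of 242.5 in UUO7 and 33.2 in sham (2.86), the myosin light chain gene Myl9 99.6 and 39.1 (1.34), and the integrin gene Itgb1 131.5 and 68.2 (0.94). The lower genes were the channel genes Trpv4 (-0.57) and Pkd2 (-0.56) and the integrin-binding Tln1 (-0.51), none of which was called on the deposited scale, where 18 were higher and 0 lower, against 60.1% and 17.8% of all genes. In UUO2 against sham 7 Hippo genes were higher and 1 lower, 7 signature genes and 1, and 11 mechanosensing genes and 2, against 25.3% and 25.5% of all genes. On the deposited scale these counts were 11 and 1, 8 and 1, and 13 and 1, against 32.3% and 17%. In R4W against sham the counts were 12 and 4, 9 and 2, and 12 and 2, against 28.9% and 31.1% of all genes. On the deposited scale they were 18 and 0, 10 and 0, and 18 and 0, against 54.8% and 11.6%. In R4W against UUO7 they were 3 and 8, 3 and 4, and 2 and 4, against 25.1% and 23.2% of all genes, and with deposited values 2 and 9, 1 and 4, and 0 and 5, against 17.6% and 30.8%.

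**Figure D5:**
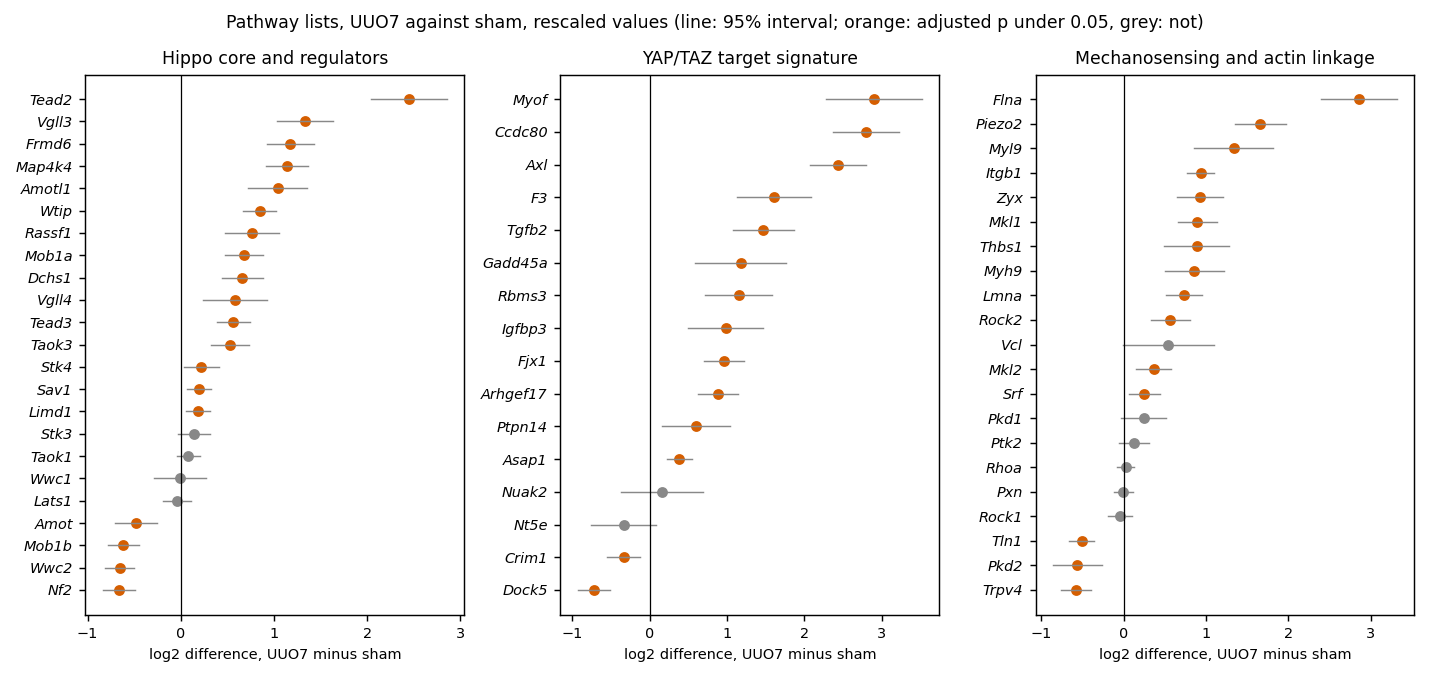
Log2 difference of UUO7 minus sham (x axis, rescaled values, line for the 95% interval) for the genes of the 3 lists (y axis, ordered by value), orange where the adjusted p was under 0.05. Tead2 (2.45), Myof (2.90) and Flna (2.86) lead their lists, and Nf2 (-0.66), Dock5 (-0.72) and Trpv4 (-0.57) close them.

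Cell type markers moved over the same groups. The sum of 5 fibroblast and myofibroblast markers was 23.8 to 48.9 in sham, 59.8 to 130.1 in UUO2, 197 to 231 in UUO7 and 103 to 144 in R4W. Within that sum Pdgfra had a mean of 1.74 in UUO2 and 2.94 in sham, while Acta2 had 61.6 and 20.3. The sum of 5 macrophage markers was 49.7 to 72.2, 68.9 to 154, 608 to 735 and 557 to 1043 in the same order. Lyz2 and C1qa made up most of it in UUO7, and Csf1r had a mean of 9.37 in UUO2 and 22.6 in sham. The endothelium sum was 59.2 to 97.9 in sham, 26.7 to 62.1 in UUO2, 116 to 124 in UUO7 and 113 to 138.5 in R4W. The podocyte sum was 53.3 to 61.5, 22.4 to 45.7, 72.2 to 81.1 and 112 to 158, so both had lower medians in UUO2 and higher ones in UUO7 and R4W than in sham. The injured tubule sum was 90.7 to 122, 856 to 1476, 1449 to 1699 and 316 to 425. The sum of 5 proximal tubule markers was 3696 to 4771 in sham, 1483 to 2515 in UUO2, 623 to 805 in UUO7 and 1472 to 2193 in R4W. The thick limb and distal sum was 3139 to 3505, 1086 to 2529, 1162 to 1413 and 2287 to 3057 in the same order. The urothelium sum was 1.83 to 39.4 in sham, 0.525 to 3.77 in UUO2, 14.9 to 26.7 in UUO7 and 39.4 to 133.5 in R4W, with medians of 2.80, 2.03, 17.0 and 85.1. None of the markers in these lists was at 0 in all libraries of a group, while 0 of 5 skeletal muscle markers have a row. The part of these shifts in the changes of the YAP/TAZ genes was not tested.

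The genes whose course was most like that of a YAP/TAZ gene were found by the root mean square gap over the 5 log2 differences against sham, among 11376 genes with a mean of at least 5 in a group. For Ctgf these were Kank3 (0.12), Cpne7 (0.15) and Plat (0.15), and for Ankrd1 they were Pea15a (0.21), Relb (0.21) and Nnmt (0.22). For Cyr61 the nearest gene was Ajuba (0.27), itself 1 of the 10, then Pvr (0.27) and Eif4ebp1 (0.29). For Yap1 they were Wdr82 (0.020), Prpsap1 (0.031) and Usp36 (0.038), and for Piezo1 they were Dlgap4 (0.092), Tapbpl (0.098) and Incenp (0.099). All 5 differences share the sham libraries, so the likeness is a description only.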

How the data were processed

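PolyA-selected RNA of whole kidneys from 24 mice was sequenced, per the labels' protocols. RSEM, Bowtie2, FastQC, DESeq2 and the mm10 build are named in the submitters' processing notes, without roles. The deposited table holds 1 value per gene and library. No unit stands in it per the file headers, and FPKM was inferred from the values (column sums 717415 to 830179, a ratio of 1.16, and 1.08 when weighted by transcript length). The authors also deposited log2 fold changes and adjusted p-values for 15 comparisons. Their base and direction were inferred from a slope of 0.92 to 1.01 on the values here. The smallest gene mean is 1, so weakly expressed genes are not analysed here.

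Each library was divided by its median ratio over genes to the geometric mean of all libraries (factors 0.789 to 1.194, 14402 genes above 0 in every library). limma 3.58.1 in R 4.3.3 (eBayes with trend) was fitted on log2(FPKM + 1) over all 24 libraries with group as the only term, Benjamini-Hochberg adjustment over 14785 genes and a threshold of 0.05, and the code was tested on simulated data. Exact permutation tests of 2 ratios within a library were run in 4 comparisons each, but the ratios were chosen after their values had been seen, so their p-values are not used. Alternatives were the deposited scale, 75th percentile scaling, pseudocounts of 0.1 and 10, a mean of at least 10, an absolute log2 difference of at least 1, the 2 groups alone, no UUO2, a replicate block, R4W 2 placed in R2W, and each library left out.

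The genes, lists and tests were chosen with earlier results of these data known. Named list genes were the up to 3 largest rises and falls in UUO7 against sham among called genes with no overlap and a mean of at least 5. Replicate errors are SD over 4 libraries and SE is limma's moderated standard error.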

Additional observations from a re-analysis of the deposited data

Results flagged for a closer look

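For each of the 10 genes in each of the 6 groups, the highest or lowest library was compared with the other 3 by Dixon's ratio, and 4 of 60 gaps passed the 95% limit, where chance gives about 3. Ankrd1 stood at 5.95 in sham replicate 2 and at 1.19 to 1.82 in the other sham libraries. Without that library its rise in UUO7 was 3.11 in place of 2.73. Amotl2 stood at 23.5 in UUO2 replicate 2 and at 33.9 to 35.6 in the others. Ajuba stood at 29.6 in UUO7 replicate 4 and at 31.9 to 32.2 in the others, a gap that is small beside the group differences. Piezo1 stood at 44.6 in R1W replicate 3 and at 38.2 to 38.7 in the others.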

How the results depend on the processing

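Of 45 differences of single genes, 26 kept their direction and their side of the threshold in all settings other than leaving out a library, and 19 did not. Deposited values turned the sign of Wwtr1 in UUO7 (0.24) and in R4W (0.33), each against sham, and of Cyr61 from UUO2 to UUO7 (0.33), and 75th percentile scaling that of Cyr61 from UUO2 to UUO7 (0.059) and of Wwtr1 in R4W against sham (0.069). The count of called genes became 1 in R4W against UUO7 with a mean of at least 10, which leaves Lats2 out, or with R4W 2 placed in R2W (Lats2 adjusted p = 0.142, and 0.115 against sham), and 2 in R1W against UUO7 on those groups alone. With an absolute log2 difference of at least 1 it became 3 (UUO2 against sham), 1 (UUO7 against UUO2), 0 (R1W against UUO7), 0 (R4W against UUO7) and 2 (R4W against sham). Leaving out 1 library gave 0 to 1 called in R1W against UUO7 and 0 to 2 in R4W against UUO7. It gave ranges spanning 0 for Ctgf (-0.58 to 0.11), Amotl2 (-0.0036 to 0.19) and Lats2 (-0.027 to 0.067) in UUO2 against sham, Amotl2 (-0.011 to 0.12) and Lats2 (-0.063 to 0.072) in UUO7 against sham, Wwtr1 in R4W against sham (-0.056 to 0.015), Cyr61 from UUO2 to UUO7 (-0.52 to 0.30) and the Cyr61 to Ctgf ratio in R4W against UUO7 (-0.32 to 0.15). The correlation of deviations between same-numbered libraries ran from -0.29 to 0.46. All 4 pairs were positive in R4W against UUO7 (0.043 to 0.12) and in R4W against R1W (0.018 to 0.12), but no comparison had every pair over 0.1, so the numbers were not taken to pair the mice. With a replicate block, 0 genes were called in R1W against UUO7. Fitting only the groups compared called Ajuba lower in R1W (adjusted p = 0.0244) and in R4W (0.00165) against UUO7, and Ankrd1 in R4W (0.015), and Wwtr1 higher in UUO2 against sham (0.0433). It lost Yap1 from UUO2 to UUO7 (0.0557) and Lats2 in R4W against UUO7 (0.0535). The cause of these changes was not tested. Depth is unknown for UUO2 and sets no limit that could be given there.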
